A study of Mus musculus with 9 samples.

Results

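The 10 genes described here are Slc2a1, Hk1, Hk2, Pfkp, Pfkl, Aldoa, Pgk1, Ldha, Pdk1 and Bnip3, taken by symbol from a count table of 46958 genes. They belong to glycolysis and to the response to low oxygen, and the rule that chose them uses names and no measured value. The names were, however, chosen with earlier results of these data known. RNA was sequenced from plasma cells isolated with beads against CD138 from the spleens of non-immunized mice aged 3 months. All mice had the mixed background C57/BL6x129/SVxBALB/c. The groups were WT, DH-LMP2A and kFRA (LCDD), with 3 mice each, 1 spleen per library and 9 libraries in all. LCDD is light chain deposition disease, in which a monoclonal immunoglobulin light chain is deposited in tissue. LMP2A is an Epstein-Barr virus protein that signals in place of the B cell receptor. The labels name no further allele, and do not say which alleles the kFRA and DH-LMP2A mice share. The isolated fraction was not pure, and markers of other spleen cells were detected in every genotype.

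Glycolysis turns glucose into pyruvate. SLC2A1 (GLUT1) carries glucose into the cell, hexokinases (HK1, HK2) trap it as glucose-6-phosphate, and phosphofructokinases (PFKP, PFKL) catalyse the committed step. Aldolase A splits the sugar, PGK1 yields ATP, and lactate dehydrogenase A turns pyruvate into lactate. PDK1 phosphorylates and inhibits pyruvate dehydrogenase, which otherwise feeds pyruvate to the mitochondria. BNIP3 is a mitochondrial receptor for mitophagy. Many of these genes are known targets of the hypoxia-inducible factor HIF-1, which binds a core of A or G followed by CGTG. Plasma cells take up much glucose, and a large part of it is used to glycosylate antibodies.

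Levels are given as CPM, a count relative to the library's total after TMM scaling (trimmed mean of M values), or as RPKM, that CPM per kilobase of merged exon. Tests are edgeR's quasi-likelihood test over 14199 genes in the 9 libraries, with Benjamini-Hochberg adjustment over all of them and a threshold of 0.05. All 10 genes passed the filter on low counts. Fold changes are log2, with a standard error (SE) or a 95% interval.

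Hk2 and Ldha were lower in DH-LMP2A and in kFRA than in WT, and Pdk1 was higher in both. These were 3 of the 10 genes in DH-LMP2A against WT, 2 lower and 1 higher, where 12.4% of all genes tested were called (7.3% lower and 5.07% higher). In kFRA against WT they were again 2 lower and 1 higher, where 17.8% of all genes were called (11.1% lower and 6.68% higher). Pdk1 was also lower in kFRA than in DH-LMP2A, as 1 of 10 where 5.02% were called (3.3% lower), so that its level ran from WT over kFRA to DH-LMP2A. The other 7 genes passed the test in no comparison. Libraries of the groups did not overlap for 4, 3 and 3 of the 10 genes in the same order, and for 36.6%, 34.3% and 25.6% of all genes, so that this share was near that of all genes. The median log2 fold change of the 10 was −0.08, −0.19 and 0.07, beside −0.01, −0.04 and −0.00 over all genes. Both comparisons with WT use the same 3 WT libraries, and each comparison's own values are given side by side.

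The promoters of Hk2, Ldha, Pdk1 and Pgk1 are shown as RefSeq gives them for GRCm38.p6, from 250 bases before to 50 bases after a transcription start, 5′ to 3′ on the gene's strand. The first 3 belong to the genes that differed, and Pgk1 to one that passed in no comparison. Capitals mark ACGTG or GCGTG on either strand, the reverse complements being CACGT and CACGC.
Hk2, chr6:82774405-82774704, minus strand: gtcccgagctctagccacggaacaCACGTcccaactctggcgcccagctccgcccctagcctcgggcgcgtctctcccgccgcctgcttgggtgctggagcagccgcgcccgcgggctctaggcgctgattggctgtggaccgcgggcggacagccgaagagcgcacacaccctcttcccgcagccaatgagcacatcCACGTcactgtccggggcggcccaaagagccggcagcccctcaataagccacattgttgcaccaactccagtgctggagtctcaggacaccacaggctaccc
Ldha, chr7:46845554-46845853, plus strand: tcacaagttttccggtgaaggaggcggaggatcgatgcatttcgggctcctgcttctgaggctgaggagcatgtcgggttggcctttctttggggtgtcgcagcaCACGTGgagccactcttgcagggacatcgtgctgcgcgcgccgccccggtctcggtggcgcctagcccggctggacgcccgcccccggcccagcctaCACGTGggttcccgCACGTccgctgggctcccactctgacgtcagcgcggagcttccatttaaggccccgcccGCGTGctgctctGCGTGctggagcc
Pdk1, chr2:71872974-71873273, plus strand: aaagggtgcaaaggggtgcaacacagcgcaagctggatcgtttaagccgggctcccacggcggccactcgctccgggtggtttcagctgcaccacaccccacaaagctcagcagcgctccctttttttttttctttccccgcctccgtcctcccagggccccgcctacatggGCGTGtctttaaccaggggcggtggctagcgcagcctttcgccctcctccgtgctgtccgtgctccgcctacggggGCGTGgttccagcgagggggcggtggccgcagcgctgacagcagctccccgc
Pgk1, chrX:106186850-106187149, plus strand: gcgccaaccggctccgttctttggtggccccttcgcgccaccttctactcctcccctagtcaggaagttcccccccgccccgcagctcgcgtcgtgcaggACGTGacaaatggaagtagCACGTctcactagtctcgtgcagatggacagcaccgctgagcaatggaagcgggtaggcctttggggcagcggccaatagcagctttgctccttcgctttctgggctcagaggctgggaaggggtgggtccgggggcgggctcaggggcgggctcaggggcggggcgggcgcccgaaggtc

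The letters ACGTG occurred in the Hk2 window at 226 and 52 bases before the start, both on the reverse strand. The Ldha window held 5 matches of ACGTG, of which 4 came from a pair of palindromes CACGTG (145 and 48 bases before the start) that match on both strands, and 2 of GCGTG after the start. The Pdk1 window had no ACGTG and 2 of GCGTG, at 78 and 2 bases before the start. The Pgk1 window held 2 of ACGTG, at 150 and 131 bases before the start. Among all 32851 RefSeq windows of this length, 19.6% held ACGTG on either strand, 32.4% GCGTG and 7.15% CACGTG. All 10 genes had at least 1 window, 15 in all. Of these 15 windows 8 held ACGTG (7 genes), 8 held GCGTG (7 genes) and 2 held CACGTG (2 genes). Ldha and Pdk1 each had another window, not shown, without ACGTG. That of Ldha held 2 of GCGTG and that of Pdk1 none. Genes that differed and one that passed in no comparison thus both carried these letters. A match is a description of the sequence and not a measured binding site.

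The depth was 15449026 to 21558128 counts per library, at which 3 counts, taken as the floor of detection, are 0.139 to 0.194 CPM. Plasma cell markers were abundant in every library. The summed level of Sdc1, Prdm1, Xbp1, Irf4, Tnfrsf17, Jchain, Mzb1 and Slamf7 was 18890 to 24141 CPM in WT, 34147 to 47160 CPM in DH-LMP2A and 20401 to 32064 CPM in kFRA. Jchain carried most of this sum. Tnfrsf17 went the other way, at 41.3 to 59.5 CPM in WT, 15.6 to 29.0 CPM in DH-LMP2A and 12.4 to 19.2 CPM in kFRA, and was called lower in both. Markers of other cells differed between the genotypes too. The 8 erythroid markers, led by the globins, summed to 51.0 to 336.9 CPM in WT, 2533 to 13564 CPM in DH-LMP2A and 1169 to 2793 CPM in kFRA. Of these Epor was not higher than in WT, at 8.34 to 12.4, 4.26 to 7.56 and 7.28 to 10.6 CPM in the same order. The 8 myeloid markers summed to 2178 to 3918 CPM in WT, 667 to 1885 CPM in DH-LMP2A and 1245 to 1941 CPM in kFRA. Of these Cd14 alone had a higher mean in DH-LMP2A than in WT (86.2 against 67.7 CPM). The 8 granulocyte markers summed to 255 to 821 CPM in WT, 20.1 to 256.6 CPM in DH-LMP2A and 6.84 to 25.4 CPM in kFRA. S100a8 and S100a9 carried most of the granulocyte sum. Of the 6 granulocyte markers tested in DH-LMP2A against WT, Mpo was called higher and none lower, with a median log2 fold change of 0.34. Of the 8 B cell markers 5 were called lower in kFRA than in WT (median −1.83), among them Pax5 (7.11 against 57.9 CPM) and Cd22 (7.80 against 94.6 CPM). In DH-LMP2A against WT 2 B cell markers were called higher and 2 lower (median −0.45). None of these markers was at 0 in a whole genotype. kFRA replicate 2 stood apart from the other kFRA libraries: the 12 proliferation genes summed to 773.8 CPM there, against 291.4 and 344.7 CPM in replicates 1 and 3. It was also the only kFRA library with high Xist, a transcript of female cells, at 734 CPM against 1.30 and 3.14 CPM. Xist was at 783, 0.459 and 495 CPM in WT replicates 1 to 3 and at 924, 882 and 4.48 CPM in DH-LMP2A. By Xist both sexes were in each genotype, and in kFRA sex cannot be told apart from the other traits of replicate 2. In bulk samples fewer cells of a type and less RNA per cell cannot be told apart.

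**Figure D1:**
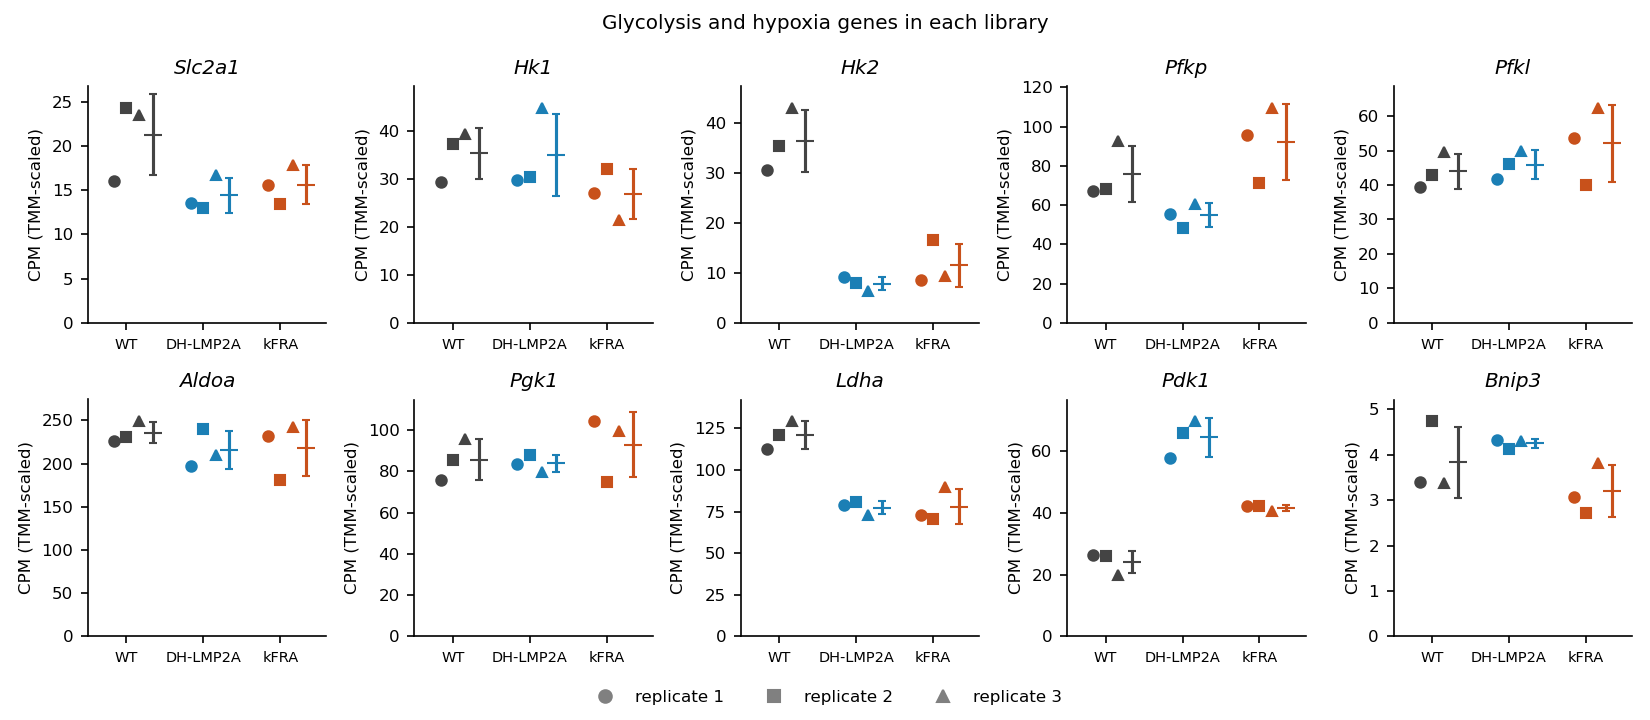
Level of each of the 10 genes (CPM, TMM-scaled, linear axis from 0) in the 9 libraries; symbols are replicates, bars the mean ± SD of 3 libraries. Hk2 and Ldha sit higher in the WT libraries than in all others, Pdk1 is lowest in WT and highest in DH-LMP2A, and Hk2 in kFRA replicate 2 (16.5 CPM) lies above the other kFRA libraries.

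Compared per length over all 9 libraries, Aldoa was the most abundant of the 10, at a mean of 76.3 RPKM (62.0 to 85.2). Pgk1 followed at 39.0 RPKM (33.4 to 46.5) and Ldha at 30.9 RPKM (23.7 to 43.4), and the ranges of this pair overlapped. Pfkl lay at 10.8 RPKM (9.0 to 14.2), Pfkp at 7.91 RPKM (5.15 to 11.7) and Pdk1 at 5.59 RPKM (2.58 to 8.98), each range overlapping the next. The transporter Slc2a1 (4.88 RPKM), Hk1 (3.80 RPKM) and Hk2 (3.11 RPKM) were lower, with overlapping ranges. Bnip3 was the least abundant at 1.66 RPKM (1.20 to 2.09). This order pools the genotypes and was not that of WT. There the mean of Ldha (40.6 RPKM) lay above that of Pgk1 (38.2 RPKM), and that of Pdk1 (3.11 RPKM) below those of Hk2 (6.08 RPKM), Slc2a1 (6.07 RPKM) and Hk1 (4.15 RPKM). The spread over libraries followed no such order. The highest library exceeded the lowest 6.66-fold in CPM for Hk2 and 3.48-fold for Pdk1, but 1.37-fold for Aldoa and 1.39-fold for Pgk1. Merged exons can exceed the length of the transcripts in use, so the order of genes per length is approximate.

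Gene positions are those of the count table and equal those of GENCODE M21 on GRCm38, where all 10 are protein-coding. Slc2a1 (chromosome 4, 119108711 to 119137983) was at 16.0, 24.3 and 23.5 CPM in WT replicates 1 to 3, at 13.0 to 16.7 CPM in DH-LMP2A and at 13.4 to 17.8 CPM in kFRA. WT replicate 1 lay within the range of both other genotypes. Against WT the difference was −0.56 for DH-LMP2A (95% interval −1.0 to −0.12, edgeR adjusted p = 0.0976) and −0.45 for kFRA (−0.89 to −0.01, edgeR adjusted p = 0.136), and neither passed. Without WT replicate 1 the former was −0.73 and passed (edgeR adjusted p = 0.0368).

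Hk2 (chromosome 6, 82725025 to 82774454), the inducible hexokinase, varied most among the 10 genes. It was at 30.5, 35.4 and 43.0 CPM in WT, at 9.10, 7.93 and 6.45 CPM in DH-LMP2A and at 8.55, 16.5 and 9.41 CPM in kFRA. Every WT library lay above every other library, and the DH-LMP2A and kFRA libraries overlapped. On the log2 scale the gene fell by 2.21 from WT to DH-LMP2A (SE 0.267, edgeR adjusted p = 0.000869), which is 4.63-fold lower. In kFRA it fell by 1.65 (SE 0.262, edgeR adjusted p = 0.00318), which is 3.15-fold lower. It passed in all 6 fits of each comparison that left out 1 replicate, with log2 fold changes of −2.34 to −2.07 for DH-LMP2A and −1.95 to −1.48 for kFRA. The summed myeloid markers were likewise higher in each WT library than in any other. With the mean of the myeloid markers as a covariate Hk2 was at −1.24 in kFRA (edgeR adjusted p = 0.0941) and at −1.83 in DH-LMP2A (edgeR adjusted p = 0.0241). With the erythroid markers it was at −2.0 (edgeR adjusted p = 0.0456) and −2.63 (edgeR adjusted p = 0.0553). Neither summed list overlapped between WT and the other genotypes, so marker level and genotype can hardly be told apart in these fits. Against DH-LMP2A, Hk2 in kFRA was at 0.56 (95% interval −0.03 to 1.15, edgeR adjusted p = 0.245). The kFRA library with the highest Hk2 was the one with the highest proliferation markers. With those markers as a covariate the difference was 1.06 and passed (edgeR adjusted p = 0.0466), and without that library it was 0.26 (edgeR adjusted p = 0.392).

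Hk1 (chromosome 10, 62268855 to 62379908), the hexokinase of most tissues, was at 29.4 to 39.4 CPM in WT, 29.9 to 44.9 CPM in DH-LMP2A and 21.5 to 32.0 CPM in kFRA. These ranges overlapped, and it passed in no comparison (edgeR adjusted p = 0.981 in DH-LMP2A relative to WT, 0.208 in kFRA relative to WT, and 0.303 between kFRA and DH-LMP2A). The ratio of Hk2 to Hk1 in RPKM was 1.48, 1.35 and 1.56 in WT, 0.435, 0.372 and 0.205 in DH-LMP2A, and 0.451, 0.735 and 0.625 in kFRA. Hk2 was the higher of the pair in each WT library and the lower in each other library. The differences in this ratio between libraries do not depend on how the libraries were scaled, but its level depends on the exon lengths used. Hk3, the hexokinase of myeloid cells, was at 47.5 to 78.7 CPM in WT, 10.3 to 51.8 CPM in DH-LMP2A and 22.5 to 48.9 CPM in kFRA. With Hk3 counted, Hk2 made up 17.1 to 29.1% of the summed hexokinase RPKM in WT, 7.01 to 11.8% in DH-LMP2A and 11.9 to 15.4% in kFRA.

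**Figure D2:**
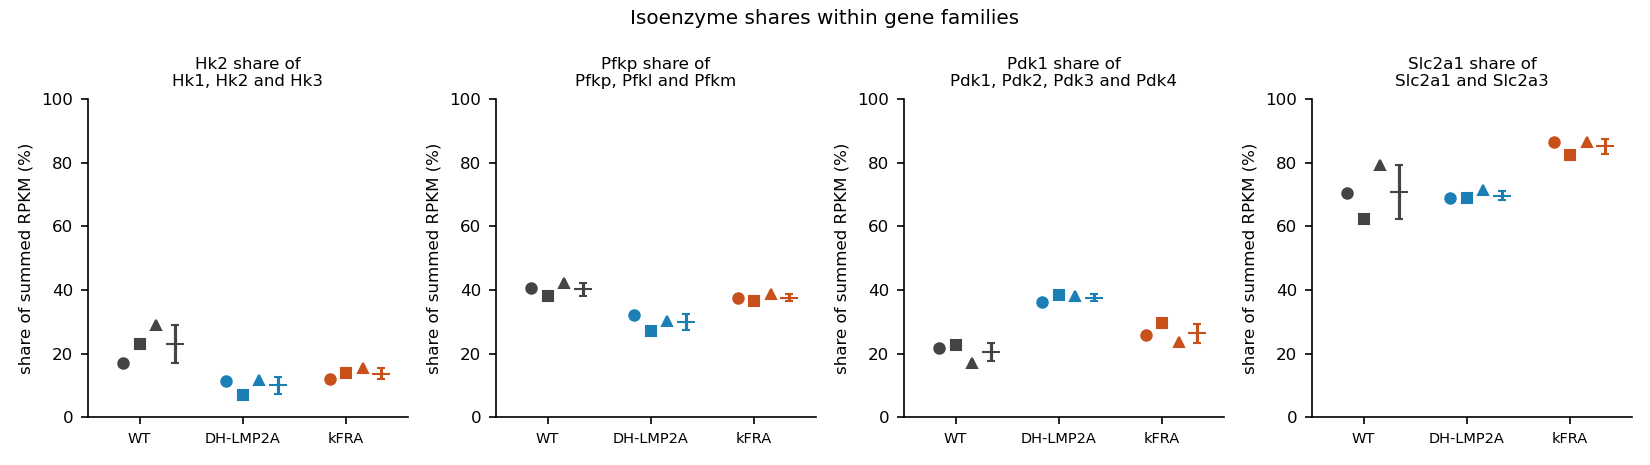
Share of the summed RPKM of a gene family held by 1 member (%, axis 0 to 100) in the 9 libraries, with the mean ± SD of 3 libraries per genotype. The Hk2 share is highest in WT, the Pfkp share lowest in DH-LMP2A, the Pdk1 share highest in DH-LMP2A and the Slc2a1 share highest in kFRA.

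The shares of 5 families were compared by exact permutation tests, 15 in all, for which 3 against 3 libraries allow no 2-sided p-value below 0.1. The families were chosen after their values were seen. In 10 of the 15 the libraries did not overlap, and each of these gave an exact permutation p of 0.1 (0.15 adjusted over the 15), so that none can pass a threshold of 0.05. Ldha made up 98.2 to 99.7% of Ldha and Ldhb in every library.

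Of the phosphofructokinases, Pfkp (platelet type, chromosome 13, 6579768 to 6648777) was at 67.2, 68.1 and 92.5 CPM in WT, 55.6, 48.3 and 60.7 CPM in DH-LMP2A and 95.7, 71.1 and 109.7 CPM in kFRA. The DH-LMP2A libraries lay below all others, and the kFRA and WT libraries overlapped. The difference of kFRA from DH-LMP2A was 0.75 (SE 0.194, 95% interval 0.31 to 1.18), which did not pass (edgeR adjusted p = 0.0617). Without kFRA replicate 2 it was 0.97 and passed (edgeR adjusted p = 0.0097), as it did with the DESeq2 Wald test (0.78, DESeq2 adjusted p = 0.0101). The former fit called 3299 of 14518 genes and the latter 1405 of 14199, against 713 of 14199 as reported. DH-LMP2A against WT was at −0.47 (edgeR adjusted p = 0.158) and kFRA against WT at 0.28 (edgeR adjusted p = 0.322). Scaled by library size alone, kFRA was above DH-LMP2A (0.58, edgeR adjusted p = 0.0444) and WT (0.47, edgeR adjusted p = 0.0303). With that scaling the median of all genes was −0.14 and 0.17 in these comparisons. Exons of Pitrm1 on the opposite strand overlap 7.96% of the exon bases of Pfkp, and since the strand setting of the counting is not stated its value is uncertain.

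Pfkl (liver type, chromosome 10, 77986947 to 78010083) was at 39.6 to 49.5 CPM in WT, 41.7 to 49.97 CPM in DH-LMP2A and 40.1 to 62.5 CPM in kFRA, and the genotypes overlapped. Its log2 fold changes of 0.06 to 0.24 did not pass. Without kFRA replicate 2 that against WT was 0.46 and passed (edgeR adjusted p = 0.0337), in a fit that called 5632 of 14518 genes, against 2523 of 14199 with all libraries. Scaled by library size alone Pfkl passed against WT in kFRA (0.43, edgeR adjusted p = 0.0356) and in DH-LMP2A (0.41, edgeR adjusted p = 0.0471). With that scaling the median of all genes was itself 0.17 and 0.33 in these comparisons. Within the family the Pfkp share of the RPKM was 38.0 to 42.1% in WT, 27.2 to 32.3% in DH-LMP2A and 36.6 to 38.7% in kFRA. The muscle type, Pfkm, was low, and higher in both other genotypes than in WT. It was at 4.30 to 6.81 CPM in WT, 8.67 to 10.6 CPM in DH-LMP2A (higher by 0.75, SE 0.196, edgeR adjusted p = 0.036) and 11.8 to 14.3 CPM in kFRA (1.17, SE 0.198, edgeR adjusted p = 0.00435). The first of these calls was held in 1 of the 6 fits lacking 1 replicate, that without WT replicate 3, with adjusted p = 0.0779 to 0.112 in the others.

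Aldoa and Pgk1, 2 abundant enzymes of the middle of the pathway, passed in no comparison, whereas Tpi1 and Eno1 (below) did. Aldoa (chromosome 7, 126795234 to 126800751) was at 226.4 to 249.1 CPM in WT, 197.3 to 240.0 CPM in DH-LMP2A and 181.5 to 241.8 CPM in kFRA. Relative to WT, DH-LMP2A was at −0.13 (95% interval −0.47 to 0.21) and kFRA at −0.11 (−0.45 to 0.23), and kFRA relative to DH-LMP2A at 0.02 (−0.32 to 0.36). Pgk1 (X chromosome, 106187100 to 106203699) was at 75.7 to 95.8 CPM in WT, 79.9 to 87.9 CPM in DH-LMP2A and 74.9 to 104.4 CPM in kFRA. Its 95% intervals were −0.38 to 0.31 for DH-LMP2A relative to WT, −0.23 to 0.46 for kFRA relative to WT, and −0.19 to 0.49 between kFRA and DH-LMP2A. These intervals leave out a 2-fold change in either direction, for both genes in each comparison. The retrogene copy Pgk1-rs7 is identical to Pgk1 over a stretch of 1255 bases and held 29.1% as many counts, so that reads may be split between them. With their counts summed, no comparison of Pgk1 passed.

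Ldha (chromosome 7, 46841475 to 46855627) was at 112.8, 121.0 and 129.5 CPM in WT, at 78.9, 80.5 and 72.8 CPM in DH-LMP2A and at 73.0, 70.7 and 90.1 CPM in kFRA. Every WT library lay above every other library. On the log2 scale the gene fell by 0.65 in DH-LMP2A (SE 0.130, edgeR adjusted p = 0.0118) and by 0.64 in kFRA (SE 0.130, edgeR adjusted p = 0.0108), or 1.56-fold and 1.55-fold. Between kFRA and DH-LMP2A the difference was 0.01 (95% interval −0.28 to 0.30). The call was less firm than that of Hk2. It was lost without DH-LMP2A replicate 1 or 3 (edgeR adjusted p = 0.0587 and 0.0622) and without kFRA replicate 1 (0.0561). It was also lost with the erythroid markers as a covariate (−0.72 and −0.70, edgeR adjusted p = 0.385 and 0.163) and with the myeloid markers (−0.65 in both, edgeR adjusted p = 0.118 and 0.145). In the comparisons with WT these marker levels and the genotype can hardly be told apart. Scaled by library size alone, Ldha was at −0.29 in DH-LMP2A and −0.44 in kFRA and did not pass (edgeR adjusted p = 0.166 and 0.055). That scaling moved the median of all genes from −0.01 to 0.33 and from −0.04 to 0.17 in these comparisons.

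Pdk1 (chromosome 2, 71873224 to 71903858) was at 26.4, 26.0 and 20.1 CPM in WT, at 57.8, 66.0 and 69.9 CPM in DH-LMP2A and at 42.3, 42.3 and 40.6 CPM in kFRA. No library of one genotype fell within the range of another. Against WT it rose by 1.42 in DH-LMP2A (SE 0.139, edgeR adjusted p = 0.000224), which is 2.67-fold. In kFRA it rose by 0.79 (SE 0.138, edgeR adjusted p = 0.00519), which is 1.73-fold. Both passed in all 6 fits lacking 1 replicate. Erythroid markers other than Epor were higher in the same genotypes, with 5 of the 8 called in each. With the mean of the erythroid markers as a covariate the log2 fold changes of Pdk1 were 1.53 and 0.87 and did not pass (edgeR adjusted p = 0.0547 and 0.108). With the myeloid markers they were 1.41, which passed (edgeR adjusted p = 0.00552), and 0.78, which did not (0.0947). Here too, marker level and genotype can hardly be told apart.

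Between kFRA and DH-LMP2A, Pdk1 was lower in kFRA, with a difference of −0.63 (SE 0.137, edgeR adjusted p = 0.0313). Leaving out a replicate gave −0.65 to −0.53, and the call held in 1 of the 6 such fits, that without kFRA replicate 2 (edgeR adjusted p = 0.0236, against 0.0699 to 0.122 in the others). It did not pass when scaled by library size alone (−0.76, edgeR adjusted p = 0.103), or with the erythroid (−0.65, edgeR adjusted p = 0.069) or proliferation markers (−0.71, edgeR adjusted p = 0.141) as a covariate. The Pdk1 share of the RPKM of the 4 pyruvate dehydrogenase kinases was 17.2 to 22.6% in WT, 36.3 to 38.5% in DH-LMP2A and 23.6 to 29.7% in kFRA. Pdk2 was also higher in kFRA than in WT, with 20.0 to 31.2 against 12.7 to 15.9 CPM (a difference of 0.89, SE 0.199, edgeR adjusted p = 0.0159). That call was lost without kFRA replicate 1 or 3 or WT replicate 2 (edgeR adjusted p = 0.0604, 0.055 and 0.0705).

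Bnip3 (chromosome 7, 138890836 to 138909519) was at 3.38 to 4.74 CPM in WT, 4.13 to 4.32 CPM in DH-LMP2A and 2.71 to 3.83 CPM in kFRA. The kFRA libraries lay below those of DH-LMP2A, but the difference of −0.41 (95% interval −0.91 to 0.10) did not pass (edgeR adjusted p = 0.305). It had 45 to 102 counts per library, the fewest of the 10 genes. Gm45507 overlaps 22.2% of its exon bases on the opposite strand, so its value is uncertain.

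**Figure D3:**
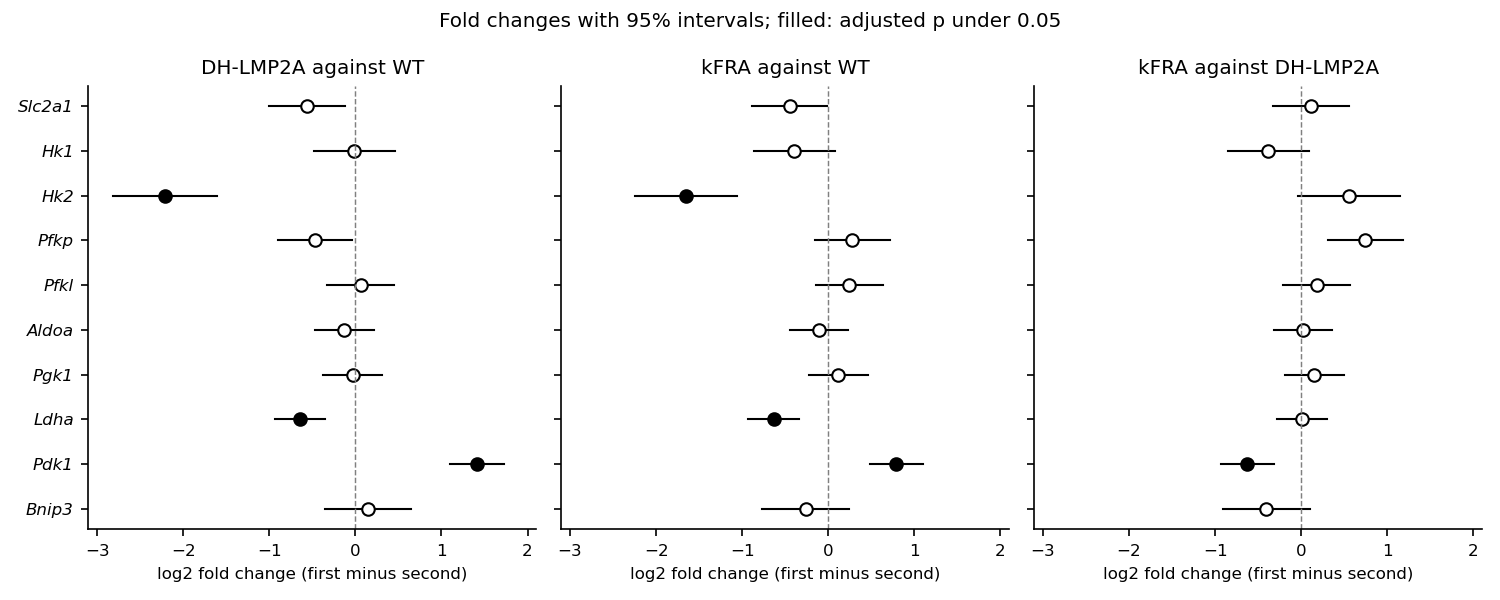
Log2 fold changes of the 10 genes in the 3 comparisons, first genotype minus second, with 95% intervals from edgeR. Filled circles passed an adjusted p of 0.05: Hk2, Ldha and Pdk1 in both comparisons with WT, and Pdk1 in kFRA against DH-LMP2A.

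**Figure D4:**
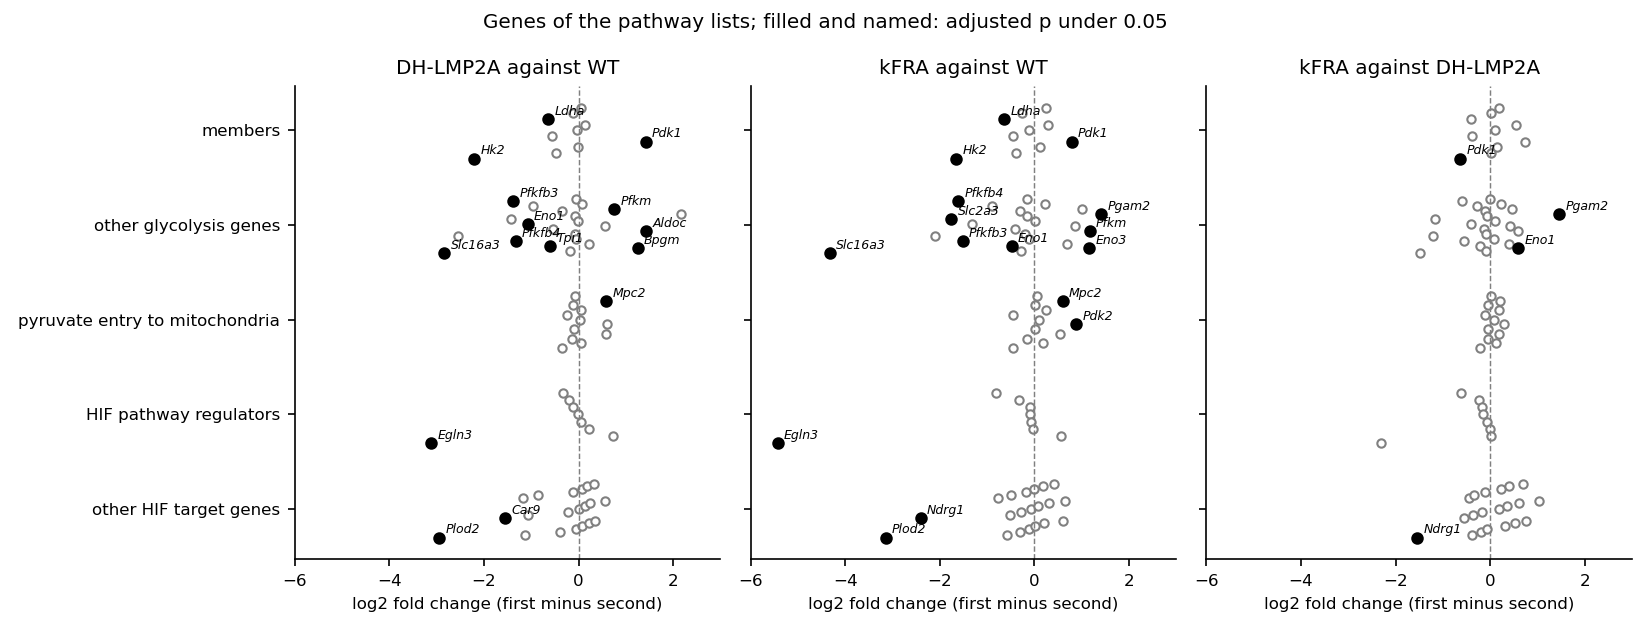
Log2 fold changes of the 10 genes (members) and of 4 further lists in the 3 comparisons; each circle is a gene, filled and named where the adjusted p was under 0.05. Calls lie on both sides of 0 among the glycolysis genes. The HIF lists hold 1 to 3 calls per comparison, and their medians lie between −0.16 and 0.06.

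The rest of the pathway was read from 4 lists of 71 genes, of which 63 passed the filter. Of the 23 other glycolysis genes tested, 3 were higher and 5 lower than WT in DH-LMP2A, and 3 were higher and 5 lower in kFRA. Either is 34.8% of the list, beside the 12.4% and 17.8% called among all genes tested in these comparisons. The median of the list was −0.08 in DH-LMP2A and −0.21 in kFRA, beside −0.01 and −0.04 over all genes. The lower genes were Slc16a3, Pfkfb3, Pfkfb4, Eno1 and Tpi1 in DH-LMP2A, and Slc16a3, Pfkfb3, Pfkfb4, Eno1 and Slc2a3 in kFRA. Slc16a3, the lactate exporter MCT4, was at 12.0 to 25.6 CPM in WT, 1.05 to 3.77 CPM in DH-LMP2A and 0.815 to 1.24 CPM in kFRA. Its log2 fold changes were −2.84 (SE 0.451, edgeR adjusted p = 0.00375) and −4.32 (SE 0.504, edgeR adjusted p = 0.000493). The first did not pass with the myeloid (−1.98, edgeR adjusted p = 0.0784) or the erythroid markers (−2.68, edgeR adjusted p = 0.318) as a covariate.

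Pfkfb4, which makes the phosphofructokinase activator fructose-2,6-bisphosphate, was at 16.4 to 32.4 CPM in WT, 8.01 to 9.27 CPM in DH-LMP2A and 5.52 to 8.94 CPM in kFRA, and passed in both. The related Pfkfb3, named after its values were seen, was at 29.4 to 43.2, 10.6 to 16.3 and 9.35 to 16.9 CPM and passed in both as well. Other settings were not examined for Pfkfb3, for Pfkfb4 in DH-LMP2A against WT, or for Eno1 (below) in kFRA against WT. The enolase Eno1 was at 144.2 to 161.3 CPM in WT, 69.2 to 81.9 CPM in DH-LMP2A and 102.5 to 117.5 CPM in kFRA, with no overlap between any of the genotypes. Its difference from WT was −1.07 in DH-LMP2A (SE 0.123, edgeR adjusted p = 0.000647) and −0.48 in kFRA (SE 0.122, edgeR adjusted p = 0.0259). kFRA was above DH-LMP2A by 0.59 (SE 0.123, edgeR adjusted p = 0.0258), a call held without DH-LMP2A replicate 2 or kFRA replicate 2 and lost without any of the other 4 replicates (edgeR adjusted p = 0.0673 to 0.0942). Near-identical copies were searched only for the 10 genes, so reads of list genes may be shared with copies.

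Another glucose transporter, Slc2a3, was at 12.6 to 30.2 CPM in WT, 12.2 to 13.8 CPM in DH-LMP2A and 5.06 to 5.95 CPM in kFRA. It was lower in kFRA than in WT (−1.76, SE 0.314, edgeR adjusted p = 0.00576), and against DH-LMP2A it was at −1.21 (SE 0.311, edgeR adjusted p = 0.0598, and 0.0491 without kFRA replicate 2). That last fit called 3299 of 14518 genes, against 713 of 14199 with all libraries. Slc2a1 made up 82.3 to 86.6% of the summed RPKM of both transporters in kFRA, 62.4 to 79.4% in WT and 68.8 to 71.4% in DH-LMP2A. Tpi1, triosephosphate isomerase, was lower in DH-LMP2A than in WT (−0.61, SE 0.115, edgeR adjusted p = 0.00901), but not without DH-LMP2A replicate 1 (edgeR adjusted p = 0.0503) or scaled by library size alone (−0.25, edgeR adjusted p = 0.23). Genes higher than WT were the muscle isoenzymes Pgam2 (1.41, SE 0.331) and Eno3 (1.16, SE 0.232) in kFRA, with edgeR adjusted p = 0.019 and 0.00988, besides Pfkm. Pgam2 did not pass without WT replicate 1 or 2 (edgeR adjusted p = 0.0663 and 0.0801). In DH-LMP2A they were the aldolase Aldoc (1.44, SE 0.267, edgeR adjusted p = 0.00836) and Bpgm (1.25, SE 0.311, edgeR adjusted p = 0.0296), besides Pfkm. Bpgm makes the red cell metabolite 2,3-bisphosphoglycerate. It was highest, at 102.0 CPM, in DH-LMP2A replicate 3, the library with the highest erythroid markers, and was at −0.19 with those markers as a covariate (edgeR adjusted p = 0.971). It did not pass without WT replicate 1, 2 or 3 (edgeR adjusted p = 0.101, 0.0896 and 0.0504). In kFRA against DH-LMP2A, Eno1 and Pgam2 (1.46, SE 0.329, edgeR adjusted p = 0.0365) were the 2 genes of the list that passed, both higher, and 21 did not. The 2 are 8.70% of the list, beside 5.02% of all genes called in that comparison (1.73% higher). Pgam2 was lost there in 4 of the 6 fits lacking 1 replicate, those without DH-LMP2A replicate 2 or 3 or kFRA replicate 1 or 3 (edgeR adjusted p = 0.0723 to 0.107).

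The entry of pyruvate into mitochondria was covered by 12 tested genes. Against WT 8.33% of them were called in DH-LMP2A and 16.7% in kFRA, beside 12.4% and 17.8% of all genes. The pyruvate carrier subunit Mpc2 was higher than WT in DH-LMP2A (0.59, SE 0.155, edgeR adjusted p = 0.0381) and in kFRA (0.60, SE 0.155, edgeR adjusted p = 0.0288), and Pdk2 was the other gene called, in kFRA. The first call was lost whichever replicate was left out (edgeR adjusted p = 0.0537 to 0.149). The second was lost without kFRA replicate 1 or WT replicate 1 or 2 (edgeR adjusted p = 0.0939, 0.0821 and 0.0636). The subunits of pyruvate dehydrogenase itself (Pdha1, Pdhb, Pdhx, Dlat, Dld) passed in no comparison, and no gene of this list passed between kFRA and DH-LMP2A.

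Of 8 tested regulators of the HIF pathway, Egln3 alone passed, lower in each comparison with WT. That is 12.5% of the list, beside 12.4% (DH-LMP2A) and 17.8% (kFRA) of all genes called, and 7.3% and 11.1% called lower. Egln3 is a prolyl hydroxylase that marks HIF for degradation and is itself a HIF target. It had 20 to 64 counts per library in WT, 4 to 10 in DH-LMP2A and 0 to 2 in kFRA, where every library was under the floor (edgeR adjusted p = 0.0103 and 0.00219 against WT). Without DH-LMP2A replicate 1 the first of these was 0.0512. Egln2 was at 63.6 to 79.0 CPM in WT, 117.9 to 129.7 CPM in DH-LMP2A and 63.4 to 154.6 CPM in kFRA, and passed in no comparison. Called or not, 3 regulators were higher and 5 lower than WT in DH-LMP2A, and 1 was higher and 7 lower in kFRA. Hif1a, the oxygen-regulated subunit of HIF-1, was at 31.2 to 51.3 CPM in WT, 32.4 to 41.0 CPM in DH-LMP2A and 19.3, 35.6 and 15.9 CPM in kFRA. In kFRA it was at −0.82 against WT (SE 0.294, edgeR adjusted p = 0.0829), and kFRA replicate 2 was again the highest of its genotype. Without that library Hif1a was lower in kFRA than in WT (−1.18, edgeR adjusted p = 0.00531) and than in DH-LMP2A (−0.97, edgeR adjusted p = 0.0162). Those fits called 5632 and 3299 of 14518 genes, against 2523 and 713 of 14199 with all libraries. Both kFRA libraries left had low Xist (1.30 and 3.14 CPM), so that sex and genotype are partly confounded in those fits.

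Of 20 other HIF target genes tested, 2 were lower than WT in each genotype and none higher, and 1 was lower in kFRA than in DH-LMP2A. The 2 calls are 10% of the list. Of all genes 7.3% (DH-LMP2A) and 11.1% (kFRA) were called lower, and 12.4% and 17.8% in either direction. In kFRA against DH-LMP2A the 1 call is 5% of the list, beside 5.02% of all genes (3.3% lower). Ndrg1 was at 4.59 to 9.28 CPM in WT, 3.53 to 3.81 CPM in DH-LMP2A and 0.889 to 1.63 CPM in kFRA. It was lower in kFRA than in WT (−2.40, SE 0.319, edgeR adjusted p = 0.00113) and than in DH-LMP2A (−1.54, SE 0.317, edgeR adjusted p = 0.0244), the latter call held without kFRA replicate 2 or 3 and lost without any of the other 4 replicates (edgeR adjusted p = 0.0613 to 0.108). The collagen lysyl hydroxylase Plod2 had 23 to 29 counts per library in WT and 0 to 5 in the others (edgeR adjusted p = 0.00979 for DH-LMP2A, or 0.0515 without its replicate 1, and 0.00821 for kFRA). The carbonic anhydrase Car9 was lower in DH-LMP2A (−1.55, SE 0.395, edgeR adjusted p = 0.0323), with 10 to 18 counts against 17 to 54. That call was lost without DH-LMP2A replicate 1 or 3 or WT replicate 1 or 2 (edgeR adjusted p = 0.0697 to 0.113), and the value was 0.01 with the erythroid markers as a covariate. Bnip3l, the paralog of Bnip3, was at 52.7 to 54.7 CPM in WT, 62.9 to 76.1 CPM in DH-LMP2A and 51.4 to 55.3 CPM in kFRA, and passed in no comparison. Jmjd6 was at 23.7 to 37.2 CPM in WT and 40.4 to 51.0 CPM in kFRA (0.60, SE 0.188, edgeR adjusted p = 0.054), and did not pass. Called or not, 10 targets were higher and 10 lower than WT in DH-LMP2A, and 8 were higher and 12 lower in kFRA. The median log2 fold change of the HIF target list was −0.02 in DH-LMP2A and −0.09 in kFRA against WT, near the −0.01 and −0.04 of all genes.

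With the erythroid markers as a covariate 5 of 24 calls among the named genes of the 4 lists were kept (20.8%), beside 24.6% of the calls among all genes over the 3 comparisons. With the myeloid markers 8 were kept (33.3%), beside 37.4%. The named genes were picked by smallest p, so these shares do not compare like with like. In kFRA against DH-LMP2A, kFRA against WT and DH-LMP2A against WT the erythroid markers left 33.3%, 27.3% and 10%, beside 61.3%, 22.9% and 12.2%. The myeloid markers left 100%, 27.3% and 20%, beside 98.6%, 24.9% and 30.5%. The log2 fold change kept its sign in 22 of the 24 with the erythroid and in all 24 with the myeloid markers. It was at least as large in 10 of the 24 with either, and smaller or reversed in the rest. These counts take in kept and lost calls alike. The summed erythroid and myeloid markers did not overlap between WT and the other genotypes. In the comparisons with WT covariate and genotype can thus hardly be told apart. Kept under both were Egln3 in each comparison with WT, Slc16a3 and Ndrg1 in kFRA against WT, and Pgam2 in kFRA against DH-LMP2A. The part of granulocyte and B cell RNA in these values was not tested.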

How the data were processed

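RNA-seq of CD138+ spleen cells from 9 mice, 3 per genotype, was deposited as 1 table of raw counts per gene. Per the submitters' processing notes, STAR 2.4.0a, featureCounts of Subread 1.5.0-p3 and DESeq2 were used. The strand setting of the counting is not given in the sources used here. Groups were taken from the sample labels. The 10 genes, the gene lists and the tests were chosen with earlier results of these data known. Genes passing filterByExpr by group were scaled by TMM and fitted with edgeR 4.0.16 (quasi-likelihood, 1 mean per genotype, all 9 libraries), with Benjamini-Hochberg adjustment over 14199 genes. The SE was the log2 fold change divided by the square root of F. Alternatives were other scalings, no filter, 391 immunoglobulin genes left out, a replicate block, marker covariates, DESeq2 1.42.0, a threshold of 0.01, the 6 libraries compared alone, and each replicate left out. The myeloid and Xist covariates and the sum of Pgk1 and its copy were chosen after seeing the data.

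RPKM used merged exon length. Copies of the 10 genes were sought in GENCODE M21 transcripts with BLAST+ 2.17.0 (at least 95% identity over 75 bases). Besides the 10 genes, a rule picked up to 3 called genes per list, comparison and direction with the smallest p, or the 3 smallest where fewer passed. Not all picked genes are described (Arnt and Pcx are not). The text also names some genes outside the rule, such as Pfkfb3. Nothing says whether mice shared litters or runs. Replicates differed by more than sampling noise (chi-square per degree of freedom 17.3 to 163.9). The edgeR fit was also run on simulated independent counts with known folds. These held no differences in sex or cell content, so they do not test the fit under such differences.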

Additional observations from a re-analysis of the deposited data

How the results depend on the processing

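As reported, 713, 2523 and 1756 genes passed in kFRA against DH-LMP2A, kFRA against WT and DH-LMP2A against WT, and 1, 3 and 3 of the 10 genes. With the erythroid markers as a covariate these were 449, 608 and 219 genes, and 0, 1 and 0 of the 10. With the proliferation markers they were 285, 1359 and 1838 genes. The added myeloid covariate left 754 genes and 0 of the 10 in kFRA against WT, 644 genes in DH-LMP2A against WT, and 948 genes and 2 of the 10 in kFRA against DH-LMP2A. In the comparisons with WT the erythroid and myeloid covariates can hardly be told apart from genotype. The DESeq2 Wald test called 1405 genes and 2 of the 10 in kFRA against DH-LMP2A. An adjusted p under 0.01 left 306, 975 and 765 genes, and 0 of the 10 in kFRA against DH-LMP2A. Leaving out 1 replicate gave 352 to 3299, 1271 to 5632 and 932 to 1408 genes, and 0 to 2, 2 to 4 and 2 to 4 of the 10. The highest counts of the first pair of comparisons came without kFRA replicate 2, which shared 697 of the 713 and 2427 of the 2523 genes. Scaled by library size alone, 26.0%, 72.0% and 79.9% of the calls were higher, against 34.4%, 37.6% and 41.0% with TMM. Fitted on the 6 libraries compared, Ldha in kFRA against WT was at −0.58 (edgeR adjusted p = 0.0537).

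Deviations of same-numbered libraries of different genotypes had correlations of −0.211 to 0.196, within the −0.267 to 0.293 of differently numbered libraries. They thus showed no pairing by number. With 3 libraries per genotype they cannot exclude a shared litter or run. A replicate block called 685, 2929 and 2067 genes, and 1, 3 and 3 of the 10, with Pfkp (0.73, edgeR adjusted p = 0.02) in place of Pdk1 (−0.63, 0.0531) in kFRA against DH-LMP2A.

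Signs reversed mostly for genes near 0. In kFRA against DH-LMP2A, library size alone put Slc2a1 at −0.04, Aldoa and Ldha at −0.14 and Pgk1 at −0.01. No filter put Aldoa and Ldha at −0.01, and the Xist covariate put Slc2a1 at −0.01 and Aldoa at −0.02. The proliferation covariate put Slc2a1 at −0.13, Pfkl at −0.09, Aldoa at −0.18, Pgk1 at −0.08, and Ldha and Pdk2 at −0.02. Leaving out 1 replicate, Aldoa ran from −0.06 to 0.20 and Ldha from −0.11 to 0.14. In kFRA against WT, Aldoa was at 0.08 by library size alone and from −0.19 to 0.07 leaving out 1 replicate (0.07 without kFRA replicate 2), Pgk1 at −0.04 with the proliferation or the myeloid covariate, Pfkp at −0.20 and Pfkl at −0.12 with the myeloid covariate. In DH-LMP2A against WT, library size alone put Hk1 at 0.33, Aldoa at 0.22, Pgk1 at 0.32 and Vhl at 0.02. Hk1 was at 0.01 with no filter, at 0.00 without immunoglobulin genes and from −0.22 to 0.08 leaving out 1 replicate. Pfkl was at −0.20 with the erythroid and −0.26 with the myeloid covariate, and from −0.01 to 0.15 leaving out 1 replicate. Bpgm was at −0.19 and Car9 at 0.01 with the erythroid covariate. Pgk1 was at 0.04 with the proliferation covariate and from −0.12 to 0.05 leaving out 1 replicate. The causes were not tested. With 3 mice per genotype, smaller differences than those called may be missed, and Egln3 and Plod2 lie near the floor of detection.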

Other observations

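The genes whose profile over the 9 libraries lay nearest to that of Pdk1 were Zbed3, Rtn4ip1 and Bmyc, with a root mean square difference in centred log2 CPM of 0.153, 0.183 and 0.204. Zbed3 was at 8.17 ± 0.621 CPM in WT, 20.3 ± 1.92 CPM in DH-LMP2A and 13.7 ± 1.15 CPM in kFRA (SD, n = 3 each). Nearest to Ldha were Mcu, the pore of the mitochondrial calcium uniporter (0.0883), Agpat5 (0.0888) and Tuba1a (0.112). Mcu was at 12.5 ± 0.775 CPM in WT, 8.04 ± 0.591 CPM in DH-LMP2A and 7.19 ± 0.903 CPM in kFRA (SD, n = 3 each). Nearest to Hk2 were Tmem221 (0.283), AC168977.1 (0.286) and Zc2hc1a (0.287), all farther from it than the former genes from Pdk1 and Ldha. Each was picked as the nearest of 14199 genes, so these are descriptions with no test.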
